A study of Mus musculus with 48 samples.

Results

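Translation efficiency, the amount of ribosome footprint a liver gene gave per unit of its RNA, was compared between 5503 genes in all 24 footprint and all 24 total RNA libraries of the study. Each footprint library was paired with the total RNA library of the same time point and replicate number. For every gene the mean over the 24 pools of log2(footprint RPKM + 0.1) minus log2(total RNA RPKM + 0.1) was taken, and the median gene, at -0.25 on that scale, was subtracted. Of 10829 genes listed in both assays, these were the ones whose mean reached 10 RPKM in total RNA and 1 RPKM in footprints. Only 3 genes, Dst, Gm21962 and Pkdcc, passed the total RNA minimum and not the footprint minimum. RPKM divides a gene's reads by its length and by the depth of the library, so levels can be compared between genes.

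The livers came from male C57BL/6JRj mice of 11 to 12 weeks that had been kept for 2 weeks under 12 h of light and 12 h of darkness; the labels give no other treatment and no mutation. Livers were collected every 2 h at 12 zeitgeber times (ZT, hours after lights on), from ZT0 to ZT22, with 2 pools of 2 livers at each time, 48 mice in all. Total RNA and footprints came from the same lysate pool, lysed in cycloheximide, which halts ribosomes of the cytosol, and the lysate for footprints was digested with RNase I, which leaves the RNA shielded by a ribosome. In every total RNA library 8 hepatocyte markers, Alb and Hnf4a among them, summed to 61650 to 94120 RPKM, and pancreatic enzymes summed to 173 to 842 RPKM in 6 pools and to 5.78 to 26.7 RPKM in the other 18. The depth on the listed genes was estimated and ranged from 13.9 to 43.1 M reads per footprint library and from 3.86 to 23.8 M per total RNA library. The samples are bulk liver, so that each value averages all cell types, and fewer cells of a type and less RNA per cell cannot be told apart.

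A ribosome starts on most mammalian mRNAs by scanning from the cap to a start codon, and it starts best at an AUG with a purine 3 bases before it and a G just after it (the Kozak context). An AUG in the leader, upstream of the coding sequence, can capture the scanning ribosome, and short leader frames of this kind repress mRNAs such as Atf4 until the cell is stressed. Ribosomal protein mRNAs begin with a cytosine followed by a run of pyrimidines, the terminal oligopyrimidine (TOP) motif, through which the nutrient sensor mTORC1 sets how much of them is translated. The liver takes up nutrients after each meal and exports most plasma proteins.

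Start codon surroundings of 5 genes of the highest and 5 of the lowest efficiency are printed here, because the start codon and the leader before it are where scanning ribosomes are caught or lost. They are the most extreme genes of the classes defined below that have a symbol, an annotated leader and an annotated ATG start and share at most 10% of their coding sequence with another gene. Each run holds 10 bases of leader and 10 bases from the start codon on, spliced, 5′ to 3′, from GENCODE M21 transcripts (build GRCm38). Capitals mark the base 3 before the start codon, the start codon and the base after it. The high genes are Hcfc1r1 (chromosome 17, start codon at 23673983, + strand), Ubl5 (chromosome 9, 20645204, +), Cd164 (chromosome 10, 41519535, +), Dynll2 (chromosome 11, 87984003, -) and Uqcrq (chromosome 11, 53430689, -).
Hcfc1r1: ctgagccGtaATGAtcctgc
Ubl5: tccagccAcaATGAttgagg
Cd164: tgaagacAcaATGTcgggct
Dynll2: acgtgtcAcgATGTctgacc
Uqcrq: cgccgtcAccATGGgccgcg
The low genes are BC005537 (chromosome 13, 24803381, +), Cenpb (chromosome 2, 131179876, -), Dnajc14 (chromosome 10, 128806211, +), Tcf20 (chromosome 15, 82857248, -) and 2610507B11Rik (chromosome 11, 78261850, +).
BC005537: gtatttcAaaATGGgggacc
Cenpb: gcgcgccGggATGGgcccca
Dnajc14: gcccgggGtcATGGcccaga
Tcf20: gctgaacAgtATGCagtcgt
2610507B11Rik: ccggaccTaaATGCctctat
A purine stands at the -3 position in all 5 high genes and in 4 of the 5 low genes, and the G after the start codon in 1 high and 3 low genes. Among the high genes Ubl5, Cd164, Dynll2 and Uqcrq have no ATG in leaders of 37, 121, 298 and 138 bases, and Hcfc1r1 has 2 in a leader of 375 bases. Among the low genes the leader of BC005537 is 1724 bases long and holds 19 ATG, and Dnajc14, Tcf20 and 2610507B11Rik have 2, 2 and 1, but Cenpb has none.

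Efficiency differed far more between genes than between livers. The standard deviation between genes was 0.86 on the log2 scale, while the standard deviation of a gene over the 24 pools had a median of 0.19 and the standard error of its mean a median of 0.04. Genes at the 5th and 95th percentile of efficiency lay 6.88-fold apart, and those at the 1st and 99th percentile 18.7-fold apart. The order of genes repeated between pools of different animals, with a Spearman correlation of 0.99 between the means of replicate 1 and replicate 2 pools and of 0.98 between light and dark phase pools (5503 genes, which share the libraries' scaling and are not independent replicates). Footprint and total RNA levels themselves had a Pearson correlation of 0.91 across the same genes on the log2 scale.

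Classes were set with limma's treat test over the 24 pools, against a difference of 2-fold from the median gene, at a Benjamini-Hochberg adjusted p under 0.05 over all 5503 genes. By this test 238 genes were of high efficiency, 4.32% of those tested, and 726 were of low efficiency, 13.2%. The median high gene had 2.54 times the footprint per RNA of the median gene, and the median low gene lay 2.97-fold below it. The low tail reached further, down to -5.08, than the high tail, up to 2.90. Shares of estimated reads are RPKM times coding length, in percent of the sum over the 5479 tested genes with an annotated transcript, not of the whole library. In footprints the high class took 6.53% ± 0.482 (SD, n = 24) of the estimated reads, against 2.96% ± 0.252 in total RNA. The low class took 2.37% ± 0.340 in footprints against 10.6% ± 0.582 in total RNA. The direction of both shifts follows from defining the classes by the ratio of the assays. The classes were graded rather than set apart, since Eno1, of glycolysis, and Rida (1.07 each) were the called high genes of highest adjusted p (0.0419 and 0.0462, limma) and albumin, Alb, with 1.06 and 0.0508 was just outside. Of the coding sequence of Eno1 89.9% is shared with another gene. On the low side Slc25a44 (-1.14) and Plxnb1 (-1.10) were just inside, and Akt2 (-1.08) and Katna1 (-1.11) just outside. The counts depend on the minimum level: with at least 10 RPKM asked of footprints too, 4274 genes were left and 128 high and 274 low genes were called relative to their own median gene.

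**Figure D1:**
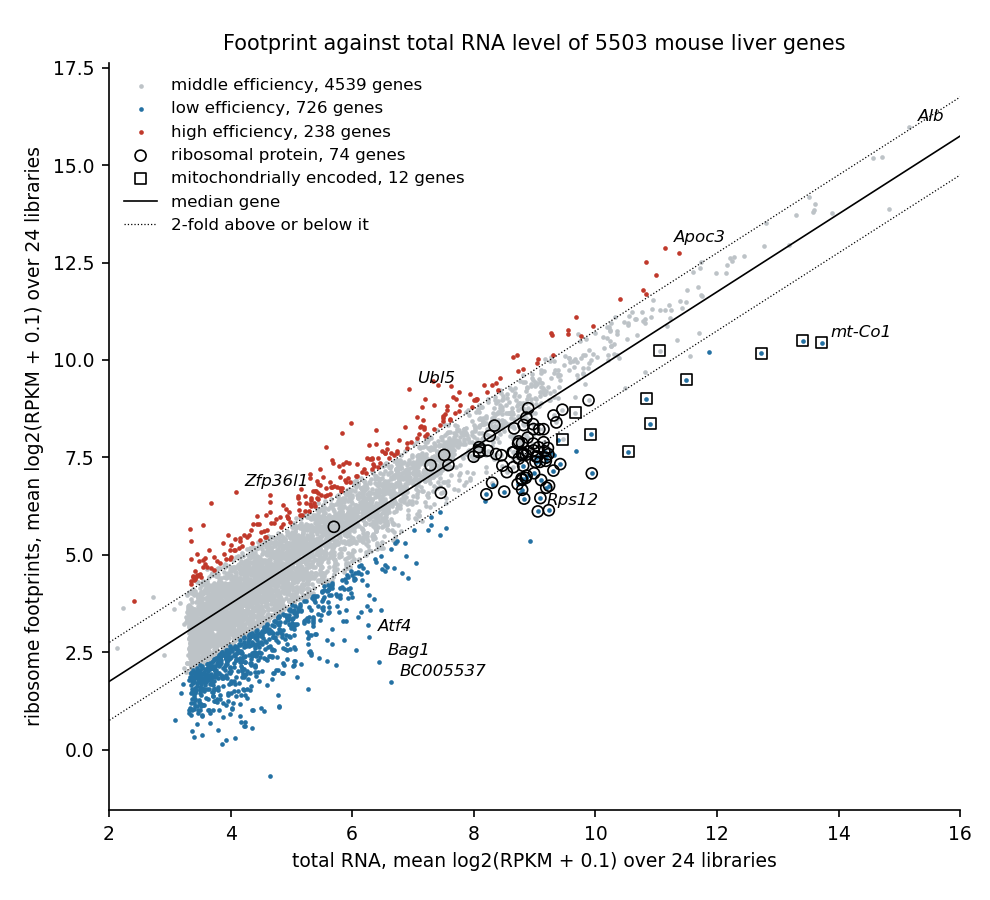
Each point is 1 of 5503 liver genes, with its mean log2(RPKM + 0.1) over 24 total RNA libraries on the horizontal axis and over 24 footprint libraries on the vertical axis. The 238 high genes (red) and 726 low genes (blue) lie outside the dotted lines 2-fold above and below the median gene, and most of the 74 ribosomal protein genes (circles) and the 12 mitochondrially encoded genes (squares) lie below the median gene at high RNA levels.

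The 15 genes with a symbol of highest efficiency ran from 2.02 to 2.90, and their median coding length was 363 nt. Ubl5, a small ubiquitin-like protein, had 93.9, 121 and 158 RPKM as the lowest, median and highest total RNA level of the 24 libraries, and 458, 612 and 861 RPKM in footprints. The efficiency of Ubl5 was 2.58 ± 0.051 (log2 mean ± SE, adjusted p = 2.425e-21, limma treat), 6.00 times that of the median gene. Uqcrq, a subunit of complex III of the respiratory chain, had 133, 156 and 213 RPKM in total RNA and 569, 695 and 910 RPKM in footprints. Cd164, a membrane sialomucin, had 37.7, 58.3 and 77.1 RPKM in total RNA against 180, 277 and 381 RPKM in footprints.

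Fkbp1a, the prolyl isomerase bound by the drug FK506, was highest of all at 2.90 and had 8.08, 12.9 and 19.5 RPKM in total RNA against 59.5, 79.9 and 102 RPKM in footprints. Zfp36l1, which binds AU-rich elements and speeds mRNA decay, followed with 2.78, and its total RNA levels of 7.50, 17.8 and 36.4 RPKM stood against 47.0, 106 and 159 RPKM in footprints. Zfp36l1 RNA itself varied more over the pools than that of Ubl5. Others of the 15 without much shared sequence were Hcfc1r1 (2.59), the dynein light chain Dynll2 (2.45), the membrane-anchored Ly6e (2.19) and the chemokine Cxcl12 (2.05). Cxcl12 had 64.7, 83.3 and 127 RPKM in total RNA and 205, 287 and 406 RPKM in footprints.

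The metallothionein Mt2, a metal-binding protein, belonged to the 15 by its mean of 2.26 but its ratio ran from -0.91 to 5.96 over the pools. Its total RNA was listed at 0 in the lowest library and reached 617 RPKM in the highest, and its footprints ran from 4.81 to 2773 RPKM. It was no longer called without pairing the libraries of a pool (adjusted p = 0.280, limma), with the replicate 2 pools alone (0.0785) or with the dark phase pools alone (0.126). Of the 15 highest genes, 6 shared over 10% of their coding 30-base words with another annotated gene, so that reads could be split or lost in the authors' counting, and their efficiency is uncertain. These were Zfp36l1, the proton pump subunit Atp6v0c (2.67), the vesicle protein Sft2d1 (2.48, with 0.55 to 9.06 over the pools), the translation repressor Eif4ebp3 (2.14), the oligosaccharyltransferase subunit Ost4 (2.06) and the major urinary protein Mup8 (2.02).

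The 15 genes with a symbol of lowest efficiency ran from -4.66 to -3.27 and were longer, with a median coding length of 1785 nt. The lowest value of all, -5.08 ± 0.484 (log2 mean ± SE), belonged to 1 of 17 tested gene IDs without a symbol in the annotation, which are counted but not named. Bag1, a co-chaperone of HSP70, had 75.7, 86.1 and 95.8 RPKM in total RNA and 2.31, 4.87 and 6.46 RPKM in footprints. Its efficiency of -3.93 ± 0.068 (log2 mean ± SE, adjusted p = 1.38e-24, limma treat) was 15.2 times below that of the median gene, and its ratio stayed between -4.82 and -3.42 over the pools. BC005537, a gene without an assigned role in the annotation used, was lower still at -4.66, with 80.7, 95.3 and 126 RPKM in total RNA and 1.31, 3.34 and 5.12 RPKM in footprints.

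Spop, which hands substrates to a cullin ubiquitin ligase, had 39.5, 54.0 and 64.4 RPKM in total RNA against 3.38, 4.31 and 5.66 RPKM in footprints, and a leader with 9 ATG. The ubiquitin ligase March2 (-3.42), the casein kinase Csnk1g2 (-3.46), the kinase Irak1 of interleukin-1 and Toll-like receptor signalling (-3.36), the atypical MAP kinase Mapk6 (-3.27, leader with 12 ATG) and the Wnt receptor Ryk (-3.29) lay in the same range. So did the chromatin remodeller Chd3 (-3.39), the centromere protein Cenpb (-3.54), the transcriptional coregulator Tcf20 (-3.47), the DNAJ protein Dnajc14 (-3.52) and 2610507B11Rik (-3.47). Their footprint levels were low but not at 0, the lowest single value being 0.76 RPKM for Tcf20. Of the 15, 3 shared over 10% of coding sequence with another gene: Mapk6, the retrogene Rps27rt (-3.32) and Gm21897 (-3.40). An ATG in the leader was present in 10 of the 13 low genes with a leader in the annotation and in 2 of the 14 high genes.

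Ribosomal proteins, which form the ribosome with its ribosomal RNA, lay on the low side. None of the 74 cytosolic ribosomal protein genes was called high and 28 were called low, beside 4.32% and 13.2% of all genes, and 68 lay below the median gene. Their median efficiency was -0.997, with -0.92 for the 45 genes of the large subunit and -1.17 for the 29 of the small subunit. Rps12 had the lowest value of the small subunit at -2.69 and Rpl41 of the large subunit at -2.84, whereas Rps13 (0.30) was highest. Together they took 0.758% ± 0.201 (SD, n = 24) of the estimated reads in footprints and 1.82% ± 0.123 in total RNA. In 73 of the 74 the coding sequence was shared by over 10% with another annotated gene, and its part in these values was not tested. Over all genes, those sharing 90 to 100% of their coding sequence had a median of 0.10, and 14.5% of them were low, beside a median of -0.04 and 12.8% among those sharing none. High genes made up 9.09% and 3.76%. Of the 242 genes sharing 90 to 100%, 48 were ribosomal protein genes themselves. Without ribosomal proteins and mitochondrially encoded genes the medians were 0.37 (sharing 90 to 100%) and -0.04 (sharing none).

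The 18 elongation factors and other mRNAs known to carry a TOP motif lay between, with a median of -0.55, 2 called low and none high. The called members were Eef1a1 (-1.41), which brings aminoacyl-tRNA to the ribosome, and its exchange factor subunit Eef1b2 (-1.57). Eef2, the translocation factor, had -1.03 and Pabpc1, the poly(A) binding protein, -1.08, neither called. The initiation factors Eif3e (-0.26), Eif3f (-0.12), Eif3h (0.42) and Eif4b (-1.18) were counted among these 18. Initiation factors listed on their own stood on the other side with a median of 0.23 over 33 genes, and 20 lay above the median gene. Among them Eif5a (1.66), the factor with the modified lysine hypusine, and the start codon selector Eif1 (1.54) were high, though 42.9% and 98.1% of their coding sequence is shared with other genes. Eif4g2 (-1.68), an eIF4G relative that does not bind eIF4E, was low. The 2 low of 18 genes with a TOP motif and the 2 high of 33 initiation factors are near the 13.2% low and 4.32% high of all genes. Tests of these differences between groups were not made.

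The transcription starts of 6 ribosomal protein genes, the lowest in efficiency among those where a motif of this kind was found, are shown because the TOP motif sits at the very start of these mRNAs. Each run is taken from RefSeq promoters of GRCm38.p6, 25 bases on the gene's strand around the annotated start. Capitals mark the stretch matched by the search given below, from its first C to the last pyrimidine, and further pyrimidines can stand before it. The genes are Rpl13a (chr7:45128726-45128750, -), Rpl12 (chr2:32961707-32961731, +), Rps18 (chr17:33955646-33955670, -), Rps24 (chr14:24490673-24490697, +), Rplp2 (chr7:141447646-141447670, +) and Rps15a (chr7:118116128-118116152, -), in order of efficiency from -1.93 to -1.17.
Rpl13a: gacaagaCCTCCTCCTTTCCCaggc
Rpl12: gatccgtCTTTTCggctttcggctc
Rps18: ccgctCTCTCTTCCacaggaggcct
Rps24: ggtcCTTCCTTgcgcgttgatatga
Rplp2: tcttcCTTTCgccgccggacgccgc
Rps15a: gccatCTTCCCTCgccggtgagtga
A C followed by at least 4 more pyrimidines, starting within 2 bases of the annotated start on the gene's strand, was found in 18 of 53 ribosomal protein genes with a promoter in the table (34.0%) and in 10.6% of all 27025 promoters. By class it was found in 9.47% of high, 13.4% of low and 12.1% of middle genes. Away from ribosomal proteins and mitochondrially encoded genes, the 516 genes with such a start had a median of -0.05 and the 3818 without it 0.03. Annotated starts can miss the true first base by a few bases, so a gene with no match is not shown to lack the motif.

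Of the protein genes on mitochondrial DNA 12 were tested, all of them below the median gene and 8 of them called low, with a median of -1.67. They encode core subunits of the respiratory chain and ATP synthase and are translated inside the organelle by ribosomes that cycloheximide does not halt. The cytochrome oxidase subunit mt-Co1 was lowest at -3.02 and mt-Nd6 highest at -0.16. These genes took 4.63% of estimated reads in total RNA and 0.762% in footprints. The coding sequence of 8 of the 12 is shared by over 10% with another annotated gene, and the other 4 had a median of -1.07. Most nuclear genes for subunits of the respiratory chain and ATP synthase lay above the median gene. For complexes II to V, 35 of 37 genes did so, 5 were called high and none low, with a median of 0.55. For complex I, 26 of 37 did so, from Ndufa6 (-0.63) to Ndufa1 (1.42), with a median of 0.40, 2 called high and none low. Without genes sharing over 10% of coding sequence the median was 0.23 over 21 genes of complex I and 0.60 over 15 of complexes II to V. Mitochondrial ribosomal proteins had a median of 0.26 over 74 genes, with 5 high, led by Mrps34 (1.42), and none low. The high counts of complex I and of the mitochondrial ribosomal proteins are near the 4.32% of all genes, while 13.2% of all genes were low.

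**Figure D2:**
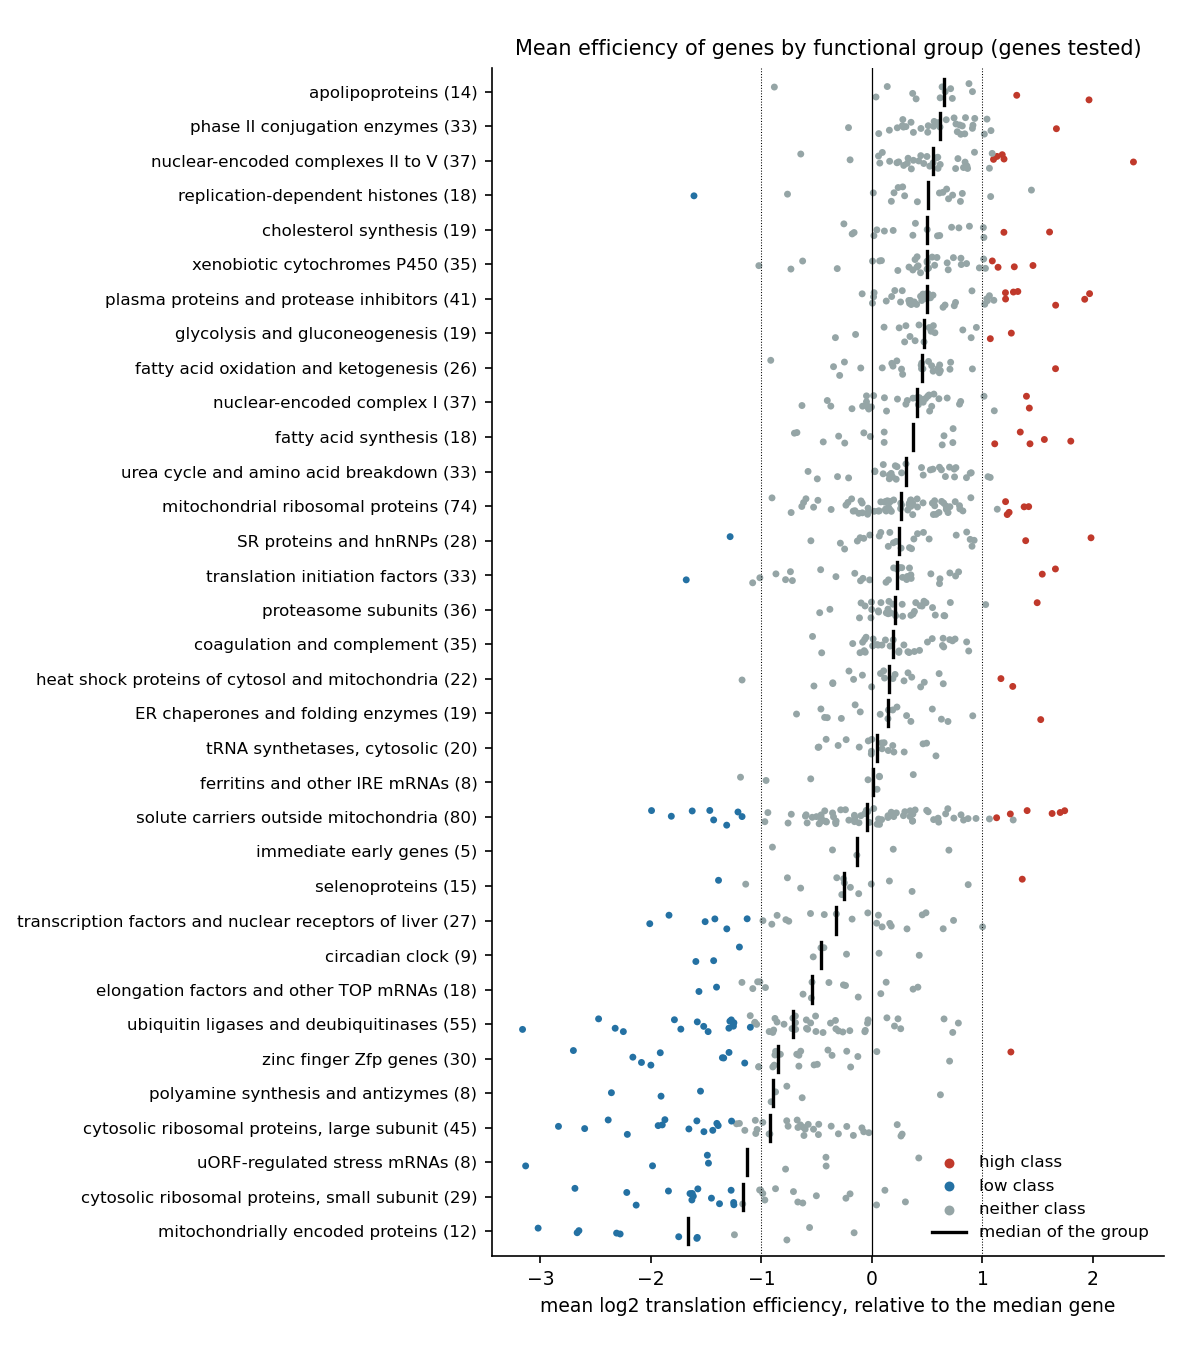
Mean log2 efficiency relative to the median gene (horizontal axis) of the tested members of each functional group (rows, number of genes in brackets, sorted by the group's median). Points are genes, red and blue for the high and low class, bars are medians, and dotted lines mark 2-fold; among these groups, which leave out the cell type markers, medians run from -1.67 for mitochondrially encoded proteins to 0.65 for apolipoproteins.

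Most secreted liver products stood above the median gene. Of 41 plasma proteins and protease inhibitors 40 did so, 7 were called high and none low, beside 4.32% high and 13.2% low of all genes, and their median was 0.50. Apolipoprotein genes had a median of 0.65 over 14 genes with 2 high. Apoc3, an inhibitor of lipoprotein lipase, was the higher of these at 1.96, with 1783, 2120 and 3527 RPKM in total RNA and 6174, 7418 and 9530 RPKM in footprints. At the other end Apob, the very long backbone protein of lipoproteins, had -0.88. Fetub, a protease inhibitor, reached 1.97, the iron hormone Hamp 1.93 (40.4% of its coding sequence shared) and the retinol carrier Rbp4 1.28. Alb, the most abundant gene of the tested set, had 28490, 35980 and 53060 RPKM in total RNA and 48570, 63280 and 96150 RPKM in footprints. The log2 ratio of Alb relative to the median gene stayed between 0.83 and 1.23 in the pools. Plasma proteins together took 26.5% of the estimated footprint reads of the tested genes against 19.9% of their total RNA reads. The 8 hepatocyte markers, which hold Alb and share only some genes with this list, took 16.7% and 10.8%. The part of Alb alone in the shift of the plasma proteins was not separated. Apolipoproteins, in spite of their median, took 5.38% of footprint reads and 5.82% of total RNA reads, and the 35 genes of coagulation and complement, at a median of 0.19 with none in either class, took 6.02% and 6.10%. Of the other genes among the 5 of most total RNA, Mup20 had 0.86, Mup7 0.75, Apoa2 0.14 and Mup14 -0.68, none of them called. The Mup genes encode major urinary proteins, and 94.6% (Mup20), 98.2% (Mup7) and 99.8% (Mup14) of their coding sequence is shared with another gene, so their values are uncertain.

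Metabolic enzymes of the hepatocyte also lay mostly above. Phase II conjugation enzymes had a median of 0.62 over 33 genes, xenobiotic cytochromes P450 0.50 over 35, cholesterol synthesis 0.50 over 19, glycolysis and gluconeogenesis 0.47 over 19, fatty acid oxidation 0.45 over 26 and fatty acid synthesis 0.37 over 18. Of the fatty acid synthesis genes 11 lay above the median gene. Without genes sharing over 10% of coding sequence, fatty acid synthesis had 0.11 over 14. The others ran from 0.35 (glycolysis and gluconeogenesis, 12 genes) to 0.53 (cytochromes P450, 10 genes). None of the 150 genes in these 6 lists was low, and 15 were high, 10.0% beside 4.32% of all genes. Urea cycle and amino acid breakdown had a median of 0.31 over 33 genes with none in either class, and with them 15 of 183 (8.20%) were high. The high members included the glutathione transferase Gstm1 (1.67), the cytochrome Cyp2f2 (1.46), the last enzyme of cholesterol synthesis Dhcr7 (1.61) and the fatty acid elongase Elovl1 (1.80). Gstm1 is uncertain, since 53.7% of its coding 30-base words are found in another gene. Proteasome subunits had a median of 0.21 over 36 genes, with 1 high gene, Psmb2 (1.495).

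The medians of 5 groups of regulators were below the median gene. Ubiquitin ligases and deubiquitinases had 16 of 55 genes in the low class and none in the high class, beside 13.2% and 4.32% of all genes, with a median of -0.72 and Fbxw2 lowest at -3.16. The list of zinc finger genes named Zfp had 9 low and 1 high of 30 and a median of -0.85. Zfp36l1, of the high class, was not in this list. Transcription factors and nuclear receptors of liver had 6 low of 27 and a median of -0.32, with Nr2f6 lowest at -2.01 and Hnf4a, a master factor of the hepatocyte, near the median gene at 0.04. Of 9 tested clock genes 3 were low, among them Clock (-1.59) and the repressor Nr1d2 (-1.43). Of 5 immediate early genes none was called, and their median was -0.14. The median coding length of the first 4 groups was 1407 to 2073 nt, against 1194 nt over all tested genes, and set against genes of the same length bin their medians were -0.49, -0.66, -0.49 and -0.40.

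Most genes with a known special control at initiation or decoding lay on the low side, apart from mRNAs with an iron-responsive element. Among 8 tested mRNAs known for regulation by short leader frames in stress, 4 were low, beside 13.2% of all genes, 1 lay above the median gene and the median was -1.13. Atf4, the transcription factor of the integrated stress response, was lowest at -3.13, 8.77 times below the median gene, with 63.3, 77.3 and 91.9 RPKM in total RNA and 4.14, 7.42 and 10.0 RPKM in footprints. Of the other members Ibtk (-1.99), the phosphatase subunit Ppp1r15b (-1.49) and Atf5 (-1.48) followed, whereas Cebpb had 0.42. Polyamine genes had a median of -0.89, 1 of 8 above the median gene and 3 low: the rate-limiting enzyme Odc1 (-2.36), its antizyme Oaz1 (-1.91), which needs a ribosomal frameshift, and the antizyme inhibitor Azin1 (-1.55). Odc1 had 43.8, 72.6 and 124 RPKM in total RNA and 5.12, 11.9 and 18.9 RPKM in footprints, and both Odc1 (83.1%) and Oaz1 (91.0%) share coding sequence with other genes. The 8 mRNAs with an iron-responsive element had a median of 0.0056, 4 above the median gene and none called. Among them the ferritin chains, which carry the element in the leader, had -1.19 (Ftl1) and -0.96 (Fth1), with footprints of Fth1 from 223 to 1484 RPKM while its total RNA stayed between 1272 and 1740 RPKM. Of 15 selenoproteins, which read a UGA stop codon as selenocysteine, 4 lay above the median gene and the median was -0.25. Among them Sephs2 (-1.39) was low and Msrb1 (1.36) high.

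Of several other groups most had medians near the median gene, and their calls are to be read beside the 4.32% high and 13.2% low of all genes. Cytosolic tRNA synthetases had a median of 0.04 over 20 genes with none in either class, ER chaperones and folding enzymes 0.15 over 19 with the ubiquitin ligase Syvn1 (1.53) high, and heat shock proteins 0.15 over 22 with 2 high. Splicing factors of the SR and hnRNP families had 0.24 over 28, with 2 high and 1 low. Solute carriers had a median of -0.04 with 6 high and 8 low of 80, shares near those of all genes, and ran from the zinc transporter Slc30a5 (-1.99) to the nucleotide sugar transporter Slc35d1 (1.74). Replication-dependent histones stood higher, with 0.51 over 18 genes and 16 above the median gene. All 18 share coding sequence with another annotated gene, and 1 was low.

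Among markers of the cell types of the tissue few genes were called. The median was 0.57 for 8 hepatocyte markers, 0.39 for 14 genes of Kupffer cells and leukocytes, -0.10 for 12 of sinusoidal endothelium, 0.89 for 9 of stellate cells and matrix and -0.17 for 4 of erythroid cells. These lists held 0, 1, 3, 1 and 0 called genes, to be read beside the 4.32% high and 13.2% low of all genes. Single members were called, among them the invariant chain Cd74 of antigen presentation (1.74), the endothelial receptor Eng (1.29) and the matrix protein Ecm1 (1.58) as high and the endothelial secreted factor Egfl7 (-2.48) as low. For the 6 pancreatic enzymes tested the median ran from -1.02 to 3.30 over single pools, none of the 6 was called, and the total RNA of the whole list summed to at most 26.7 RPKM in 18 of the 24 pools.

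Efficiency was lower the longer the coding sequence. Spearman's correlation across 5479 genes with an annotated transcript was -0.38, and -0.41 without ribosomal proteins and mitochondrially encoded genes. Genes with a coding sequence under 300 nt had a median of 0.36, those from 600 to under 1200 nt 0.17, those from 1200 to under 2400 nt -0.07, those from 2400 to under 4800 nt -0.57 and those of 4800 nt or more -1.05. In the shortest bin 13.9% of genes were high and 3.47% low, and in the longest none of 163 was high and 48.5% were low. The median coding length was 639 nt in the high, 1146 nt in the middle and 1792 nt in the low class. Plasma proteins stood 0.71 above other genes of their length bin, and cytosolic ribosomal proteins, although short, stood at -1.08 (large subunit) and -1.42 (small subunit) relative to theirs.

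The relation to RNA level was weaker and depended on the minimum. Spearman's correlation with mean log2 total RNA was 0.25. It was also 0.25 where efficiency came from replicate 1 pools and RNA level from replicate 2 pools, so that random error of single libraries was not shared. A bias of a gene's total RNA level that repeats in both replicates would still enter both values. The median went from -0.25 in the 551 genes of lowest RNA level to 0.35 in the 551 of highest, where 69 ribosomal protein genes also lay. With at least 10 RPKM asked of footprints as well, which by construction removes genes of low RNA level that are also of low efficiency, the correlation was 0.0038. The same minimum left the correlation with coding length at -0.27. Coding length and RNA level went together, with a median coding length of 1533 nt in the tenth of genes of lowest RNA level and 972 nt in the highest. The relations of efficiency to length and to RNA level were not separated.

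**Figure D3:**
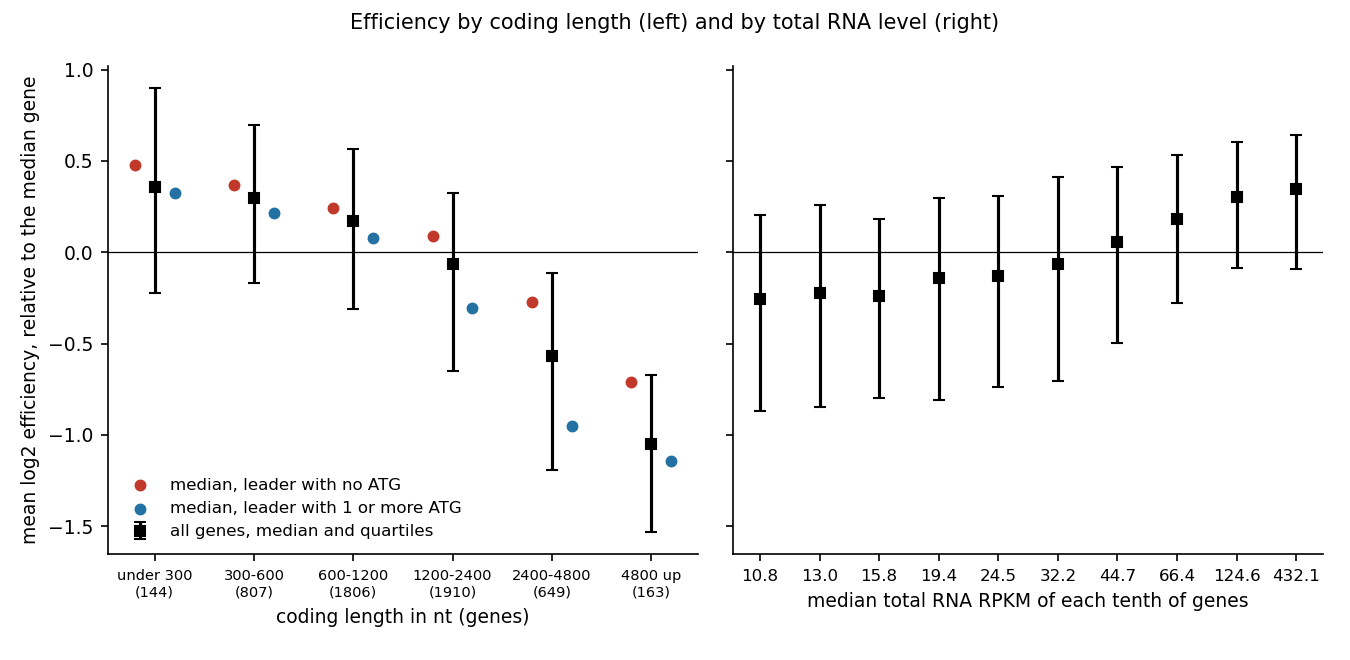
Median and quartiles of mean log2 efficiency (vertical axis, relative to the median gene) by coding length in nt with the number of genes per bin (left) and by total RNA level in 10 groups of equal size (right). Coloured points give the medians of genes with no ATG in the leader (red) and with 1 or more (blue): the medians run from 0.48 to -0.71 and from 0.32 to -1.14 from the shortest to the longest bin.

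Genes with an ATG in the leader had a lower median efficiency than those without in every bin of coding length. It was present in 31.5% of high, 43.7% of middle and 77.2% of low genes, out of 232, 4304 and 675 genes with a usable leader. At least 3 were present in 7.76%, 12.9% and 32.6%. The 2735 genes with none had a median of 0.14, the 1192 with 1 of them -0.13, the 490 with 2 -0.32, and the 234 with 6 or more -0.42. Between leaders from 100 to under 300 bases alone, the medians were 0.14 with none, -0.14 with 1, -0.34 with 2 and -0.27 with 3 or more, and 5.76%, 16.7%, 23.1% and 20.4% of genes were low. Among coding sequences from 2400 to under 4800 nt the median was -0.27 with no leader ATG and -0.95 with 1 or more, and 12.5% against 43.4% of genes were low. The genes with none still had medians from 0.48 in the shortest to -0.71 in the longest bin.

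Other features of the mRNA also differed between the classes. Spearman's correlation with efficiency was -0.24 for the number of leader ATG and -0.22 for leader GC content. It was 0.15 for GC at the third codon position, -0.14 for leader length and -0.12 for the length after the stop codon. Leaders had a median of 160 bases in the high, 144 in the middle and 236 in the low class, with a GC content of 63.7%, 64.4% and 69.2%. A purine at -3 of the start codon was present in 91.0%, 89.4% and 82.9%, and a G after it in 46.8%, 54.7% and 46.4%, so the latter did not follow the order of efficiency. GC at the third codon position was 65.5%, 58.6% and 55.8%. The sequences after the stop codon had medians of 636.5, 801 and 1173 bases. All are properties of the representative transcript chosen from the annotation, which need not be the form expressed in liver.

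**Figure D4:**
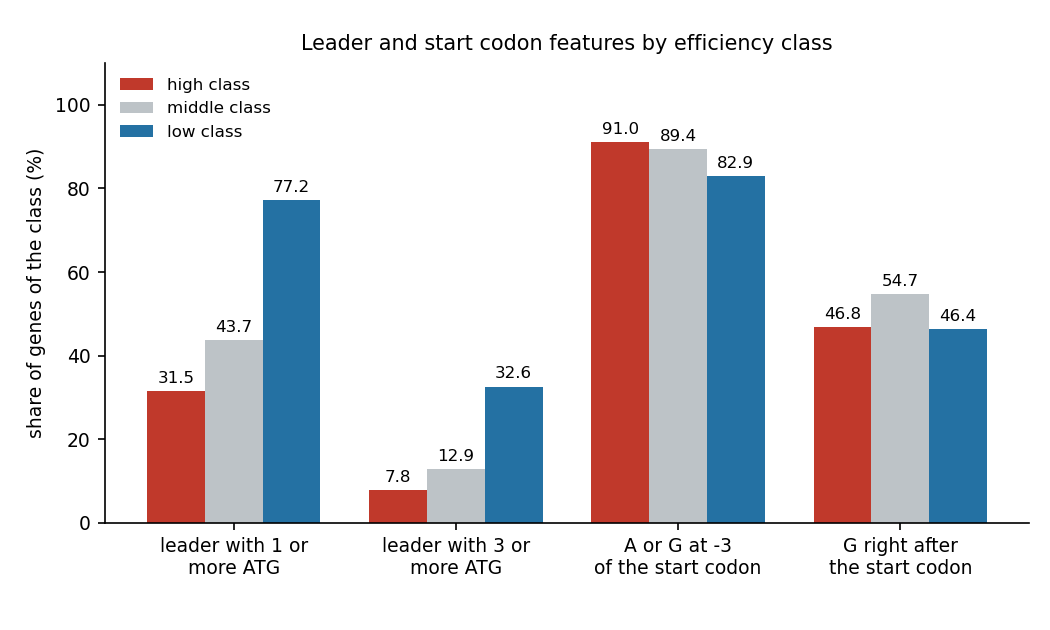
Share of genes in percent (vertical axis) with a leader ATG, with 3 or more leader ATG, with A or G at the -3 position and with G right after the start codon, for the high (red), middle (grey) and low (blue) classes. A leader ATG is in 31.5% of high and 77.2% of low genes, while the start codon context differs by less.

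Most class members stayed on their side of the median gene in every pool. Of the 238 high genes 234 were above the median gene in all 24 pools and 89 (37.4%) by 2-fold or more in all of them. Of the 726 low genes 725 were below it in all pools and 432 (59.5%) by 2-fold or more. Over all 5503 tested genes, 60.4% kept to the same side of the median gene in all pools, and 9.47% by 2-fold or more. The classes were called from these same 24 pools, so such counts are largely fixed by the calls and are no test of dependence on time. With each replicate's 12 pools alone 196 and 200 high genes were called, 179 of them shared (91.3% and 89.5%), and 664 and 698 low genes, 646 shared (97.3% and 92.6%). With the 12 light phase or 12 dark phase pools alone, 161 high genes were shared, which was 65.4% of the 246 called in the light and 89.9% of the 179 called in the dark, and 616 low genes, 85.8% of 718 and 96.4% of 639. Without the 6 pools highest in pancreatic enzymes 214 high and 702 low genes were called. The absolute difference between light and dark had a median of 0.08 over genes, and 10 genes differed by more than 1.

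A 24 h rhythm of efficiency was called in 505 genes, 9.18% of those tested (limma, moderated F test over the 24 pools, adjusted p under 0.05). Of the high genes 36 (15.1%) and of the low genes 60 (8.26%) were among them. The count depends on the fit and on single libraries. It was 65 without pairing the libraries of a pool, 238 with time points as a factor and 12 without the 6 pools highest in pancreatic enzymes. It was 275 without ZT4 replicate 1, 286 without ZT18 replicate 1, 305 without ZT20 replicate 1, 324 without ZT12 replicate 2 and 329 without ZT2 replicate 2. The 6 pools highest in pancreatic enzymes were ZT2 replicates 1 and 2, ZT4 replicate 1, ZT6 replicate 1, ZT8 replicate 2 and ZT16 replicate 2. Leaving them out also leaves no pool of ZT2. Their pancreatic content and the loss of pools at these times cannot be told apart here. Whether pancreatic tissue in the pools has a part in the rhythm count was not tested.

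The median efficiency of ribosomal proteins moved with time point and pool. By time point it was highest at ZT10, with -0.34, and lowest at ZT20, with -1.39, and pools of the same time differed too, at ZT12 by -1.16 against -0.21. It was below the median gene in every one of the 24 pools. Of the 74, 12 (16.2%) were among the 505 genes called rhythmic, beside 9.18% of all genes, as 4 of the large and 8 of the small subunit. For the mitochondrially encoded genes the median was lowest at ZT2 with -2.54 and highest at ZT12 with -0.40, and 9 of 12 were among the 505. Plasma proteins by contrast kept a median between 0.38 and 0.72 in single pools, and complexes II to V between 0.36 and 0.78.

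**Figure D5:**
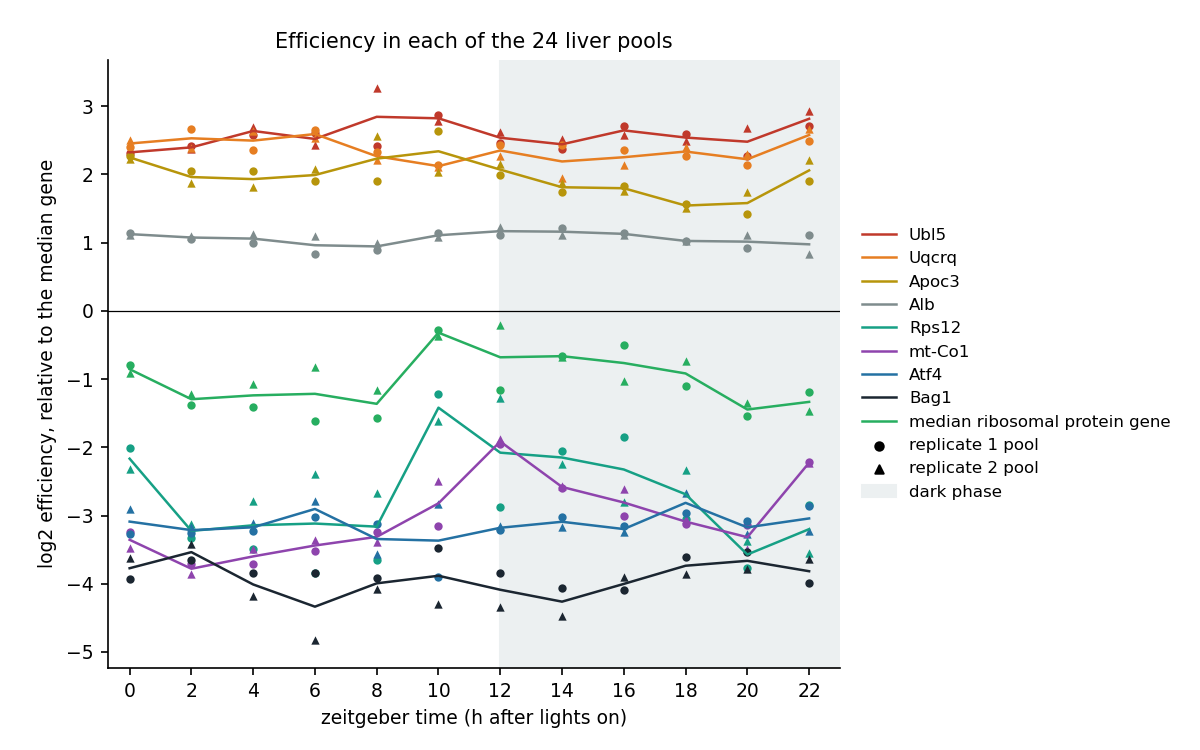
Log2 efficiency relative to the median gene (vertical axis) in each of the 24 liver pools by zeitgeber time in hours (horizontal axis, dark phase shaded), with lines through the means of the 2 pools. Ubl5, Uqcrq, Apoc3 and Alb stay above the median gene and Rps12, mt-Co1, Atf4 and Bag1 below it in every pool, and the median ribosomal protein gene runs between -0.21 and -1.61.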

How the data were processed

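Ribosome footprints and total RNA were sequenced from the same 24 liver lysate pools, and the deposited values are RPKM per Ensembl gene, made by the authors and given in 1 table per library (48 libraries). Per the submitters' processing notes, the aligners TopHat2 2.0.11 and Bowtie2 2.2.1 were among the tools, beside cutadapt, CASAVA, Cufflinks 2.2.1 and edgeR, with the builds mm10 and GRCm38.p2. The sources used here do not say what each did, which gene models were used or how reads matching several genes were treated. RPKM is relative to the library, so efficiency is relative between genes, and a change of all genes together cannot be seen.

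Read totals were estimated from the steps of low RPKM values times coding length. Between 39.7% and 75% of those values came out whole within 0.04 read, so depths are estimates. Chance gives 8% for any single read total, but each total was picked from many for a high share, so 8% is not its chance level. Estimated reads on the listed genes could exceed the estimated total, as in the footprint library of ZT16 replicate 2 (21.5 against 18.2 M). Where the ratio of both assays is taken, gene length cancels.

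Symbols, coding lengths, leaders and coordinates came from GENCODE M21 (GRCm38), with 1 representative transcript for 5479 of 5503 genes. Promoter sequences came from RefSeq (GRCm38.p6), matched by symbol for 4387 genes. Shared sequence is the percent of coding 30-base words also found in a transcript of another annotated gene. No genome sequence was used, so unannotated copies were not counted, and extreme genes were named whatever their shared sequence.

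Ratios used a pseudocount of 0.1 RPKM, so fold changes of low genes are understated. limma 3.58.1 in R 4.3.3 gave treat tests of the mean ratio against 2-fold and 24 h harmonic tests, adjusted by Benjamini-Hochberg over all tested genes and tested on simulated data first. Means and errors are over 24 pools of different mice and hold both time of day and pool. Differences between footprint deviations of the pools of a time point went with those in total RNA at 12 of 12 time points (r from 0.25 to 0.76), and the labels give both assays the same lysate, so the numbers pair the libraries. Gene groups (40 lists) and sequence features are described by counts and medians, without tests. The genes named are the 15 highest and 15 lowest with a symbol (17 tested IDs, the lowest of all among them, have none), the extremes of each list and further list members, the genes at the thresholds and the 5 most abundant. The members, lists and rules were chosen with earlier results of these data known. Python 3.11.15, pandas 2.3.3 and matplotlib 3.10.9 were used for the rest. Alternatives varied the pseudocount, the minimum level, the pairing, the centring, the model, the pools and the genes.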

Additional observations from a re-analysis of the deposited data

Results flagged for a closer look

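Of the 15 genes of highest and 15 of lowest efficiency that have a symbol, Ost4, a small subunit of the oligosaccharyltransferase, was the only one whose efficiency also passed the test for a 24 h rhythm, with a range of 0.49 on the log2 scale, a peak at ZT12.9 and an adjusted p of 0.0431 (limma, moderated F test over 24 pools). Its mean was 1.97 in the light phase and 2.16 in the dark phase pools, so it was of high efficiency in both. Its coding sequence is shared by 50.6% with another annotated gene. The number of genes that pass this rhythm test depends on the fit and on single pools.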

How the results depend on the processing

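Counts of high and low genes moved with the minimum level: 420 high genes with at least 1 RPKM in both assays, 128 high and 274 low with at least 10 RPKM in both, and 525 high and 1114 low with no minimum, out of 9445, 4274 and 10829 genes. The spread between genes was 0.80 with a pseudocount of 1, 0.83 and 0.67 with the minima of 1 and 10 RPKM in both assays, and 0.83 without genes sharing coding sequence. Spearman's correlation with coding length was -0.27 with at least 10 RPKM in both assays, -0.45 with no minimum and -0.43 without genes sharing coding sequence. Spearman's correlation with RNA level was 0.13, 0.0038 and 0.20 with minima of 1 RPKM and 10 RPKM in both assays and with none, 0.27 without genes sharing coding sequence and 0.29 without ribosomal proteins and mitochondrially encoded genes, the last chosen after seeing the data. The causes were not tested beyond the change in the genes tested. Rhythm calls were 65 with no replicate block, 238 with time as a factor and 12 without the 6 pools highest in pancreatic enzymes, which include both pools of ZT2. Without the block, 196 high and 669 low genes were called. Leaving out each pool in turn gave 229 to 243 high genes, 718 to 731 low genes, 275 to 630 rhythmic genes, a spread of 0.859 to 0.863, and correlations of -0.387 to -0.381 for length and 0.248 to 0.252 for RNA level. For the single genes named, 4559 of the recomputed values kept direction and call, 57 gained the call, 108 lost it and none reversed; of the 30 extreme genes with a symbol Mt2 alone lost it. Footprint levels near 1 RPKM limit the precision of the lowest efficiencies.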
